A study of Mus musculus with 10 samples.

Results

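The BCL2 family sets whether a cell passes the point of no return in mitochondrial apoptosis. Guardian proteins (BCL2, BCL-XL, MCL1 and A1) hold the effectors BAX and BAK in check, and BH3-only proteins such as BIM and NOXA bind the guardians and release the effectors, which then open the outer mitochondrial membrane to cytochrome c. MCL1 is short-lived and A1 is a known early target of inflammatory signalling in myeloid cells, which include microglia, the resident macrophages of the brain. The 10 genes described here were chosen by symbol, out of 24411 gene rows: the guardians Bcl2, Bcl2l1 (BCL-XL), Mcl1, Bcl2a1a, Bcl2a1b and Bcl2a1d (A1), the BH3-only genes Bcl2l11 (BIM) and Pmaip1 (NOXA), and the effectors Bax and Bak1. Each symbol had 1 row in every library.

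All 10 RNA libraries came from cells given EPZ-6438, an inhibitor of the histone methyltransferase EZH2, at 10 uM, so no comparison here measures the inhibitor itself. Samples without it were not analysed here. The primary microglia were shaken off mixed glial cultures of pooled whole brains from neonatal ICR mice, and either received the inhibitor alone for 4 h (3 libraries) or together with 10 ng/ml of lipopolysaccharide (LPS), a bacterial product sensed by a Toll-like receptor, for 4 h (3 libraries). BV2, an immortalised mouse microglial line, was treated in the same 2 ways (2 libraries each). Per the labels' protocols, nearly all of the primary cells were CD11b-positive by flow cytometry. The labels do not tie the libraries of a group to separate cultures. The spread behind each p-value may therefore be technical.

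Libraries held 2750988 to 3684012 gene counts. Levels are given as CPM, the usual depth-scaled count of RNA-seq, with library sizes adjusted by the trimmed mean of M-values (TMM) method. The most that a count of 0 allows, 3 counts, corresponds to 0.814 to 1.09 CPM before that adjustment, and to somewhat different values after it. All 10 microglial markers checked had counts in every group, summing to 1860 to 2190 CPM in primary and 1170 to 1330 CPM in BV2 libraries, but Tmem119 (1.90 to 2.51 CPM) and P2ry12 (2.07 to 5.68 CPM) were low in the primary group means. Primary libraries also held astrocyte markers (8 of 8, summing to 870 to 1450 CPM without and 883 to 1560 CPM with LPS), oligodendrocyte-lineage markers (172 to 180 and 128 to 161 CPM), fibroblast markers (92.5 to 302 and 68.6 to 124 CPM) and neuronal markers (40.9 to 48.6 and 41.1 to 53.6 CPM). In BV2 libraries 7 of 8 astrocyte markers, including Gfap, and all 5 fibroblast and all 5 neuronal markers were at 0. The ribosomal RNA precursor Rn45s took 40.9% to 51.7% of counts in the LPS-free primary libraries. In the LPS-treated ones its share was 43.7% in replicate 1, 15.7% in replicate 2 and 16.0% in replicate 3. Replicate 1 of the LPS-treated primary microglia stood apart from replicates 2 and 3 (chi-square over degrees of freedom of 61.1 and 66.1 against them, and 2.62 between them). This measure was taken on raw counts with Rn45s included, so it is not separate from the Rn45s shares. The correlations of log2 levels were 0.963 and 0.965 against them and 0.982 between them. The 6 members called for LPS in primary microglia were called without this library too, and values without it are given beside each member whose call or direction it changes.

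Members are read row by row, and for A1 this matters because the mouse has near-identical copies of the gene on chromosome 9. The mm10 positions are 88956900 to 88962419 on the plus strand for Bcl2a1a, 89199209 to 89207827 on the plus strand for Bcl2a1b, and 88723285 to 88731914 on the minus strand for Bcl2a1d. The first 120 coding bases are shown to let a reader see how little separates these rows. Capitals mark the 7 positions in this stretch at which the 3 copies do not all carry the same letter, out of 12 such positions in the 516 coding bases.
Bcl2a1a: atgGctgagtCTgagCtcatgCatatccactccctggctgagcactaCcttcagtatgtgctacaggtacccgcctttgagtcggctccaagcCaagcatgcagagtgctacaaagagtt
Bcl2a1b: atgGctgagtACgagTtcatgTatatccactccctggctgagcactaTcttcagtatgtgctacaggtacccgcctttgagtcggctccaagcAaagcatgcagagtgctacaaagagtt
Bcl2a1d: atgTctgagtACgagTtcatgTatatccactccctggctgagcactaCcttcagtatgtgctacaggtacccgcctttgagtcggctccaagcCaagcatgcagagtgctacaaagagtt
The coding sequences were 97.9% identical between Bcl2a1a and Bcl2a1b, 98.6% between Bcl2a1a and Bcl2a1d, and 98.8% between Bcl2a1b and Bcl2a1d (GENCODE M21 transcripts). Of all 101-base windows, the length of a read, 56.9% in Bcl2a1a, 69.5% in Bcl2a1b and 46.0% in Bcl2a1d occurred in none of the other copies. A read from the remaining windows fits more than 1 copy, unless the other read of its pair, not considered here, tells the copies apart. Reads that mapped to several places are not in the counts. The split of counts among copies is therefore uncertain, and the sum of the copies is reported as well. Bcl2a1b also overlaps Gm29094 on its own strand in the annotation.

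The promoters of the copies were as alike. The RefSeq windows (GRCm38.p6, 250 bases before to 50 after the start) were 98.0% to 99.2% identical over their shared part. The stretch shown holds the 1 match in each of the 3 windows to the AP-1 motif TGANTCA, in capitals, and is set beside the same stretch of Bcl2a1c, another copy and no member, which has no match.
Bcl2a1a: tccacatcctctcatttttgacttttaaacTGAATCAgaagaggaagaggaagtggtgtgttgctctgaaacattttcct
Bcl2a1b: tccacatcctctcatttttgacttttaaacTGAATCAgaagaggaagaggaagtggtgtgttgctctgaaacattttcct
Bcl2a1d: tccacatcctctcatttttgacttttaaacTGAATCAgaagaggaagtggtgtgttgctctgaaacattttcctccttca
Bcl2a1c: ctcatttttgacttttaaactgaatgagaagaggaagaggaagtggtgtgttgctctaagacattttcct
They lie at chr9:88956770-88956849 (plus strand), chr9:89199079-89199158 (plus strand), chr9:88731915-88731994 (minus strand) and chr9:114329885-114329954 (plus strand). Both strands were searched, and 7.81% of 32851 mouse promoter windows of 300 bases held this motif. The NF-kB consensus, found in 8.46% of the windows and searched in the same way, matched only 1 member window, an alternative start of Bcl2l1, and no A1 window. A match is a description of letters and not evidence of binding, and no match says only that these letters are not in the window.

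Among the members, A1 gave the largest changes with LPS in primary microglia. In the 3 libraries without LPS, Bcl2a1b stood at 47.6, 40.9 and 54.9 CPM, and in the 3 with LPS at 541, 609 and 662 CPM. Bcl2a1d, the row with the lowest adjusted p among the members, went from 1.87, 3.68 and 2.46 CPM to 164, 180 and 197 CPM. For both genes every LPS library lay far above every library without LPS. The log2 fold change was 3.64 ± 0.14 (SE) for Bcl2a1b (adjusted p = 5.32e-14) and 6.06 ± 0.20 for Bcl2a1d (adjusted p = 8.37e-15), by the quasi-likelihood test of edgeR with Benjamini-Hochberg adjustment over all genes, as for every adjusted p below. Without LPS only 5, 9 and 7 reads stood behind Bcl2a1d, so the row passed the low-count filter through its LPS libraries. It was called higher without the filter as well.

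Bcl2a1a was nearly silent without LPS. Its counts were 0, 0 and 2 in the 3 LPS-free libraries and 252, 257 and 358 after LPS, or 94.1 ± 10.6 CPM (SD, n = 3) with LPS. The ratio of the summed counts, scaled for library size, was 374, with a 95% counting interval of 103 to 3100 that holds for these libraries only. The fit called the row higher (adjusted p = 3.03e-13). The row passed the low-count filter only through its LPS libraries, and was called higher without the filter as well. Bcl2a1c was at 0 in all 3 libraries without LPS and had 19 counts over those with LPS, at least 5.47-fold higher against 3 counts over the group. It was too low to enter the edgeR test, and DESeq2, which sets its own filter, called it higher.

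The 4 rows added together rose from 49.4, 44.6 and 58.1 CPM to 805, 873 and 963 CPM. The sum is not altered by reads assigned to the wrong copy, but reads that mapped to several places are missing from it, and the copies differ in how much of their sequence is their own. It was 17.1-fold higher with LPS (log2 4.10 ± 0.14, adjusted p = 7.46e-15).

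LPS did not raise the copies in proportion in primary microglia. Bcl2a1b held 96.2%, 91.7% and 94.5% of A1 counts without LPS and 67.3%, 69.8% and 68.7% with it. Bcl2a1d held 3.79%, 8.26% and 4.24% without LPS and 20.4%, 20.6% and 20.4% with it. Bcl2a1a went from 0%, 0% and 1.21% to 12.3%, 9.39% and 10.5%. The groups did not overlap for any of the 3 copies, and the two-sided exact permutation p was 0.1 for each, the smallest that 3 against 3 libraries can give. The shares are parts of the same total, so a rise in some copies forces a fall in others and these are not separate results. In BV2 cells Bcl2a1d already held 19.7% and 23.0% of A1 counts without LPS and 20.4% and 21.7% with it. The plot of A1 shares by library shows both patterns side by side. The difference between the cells was not tested on the shares.

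**Figure D1:**
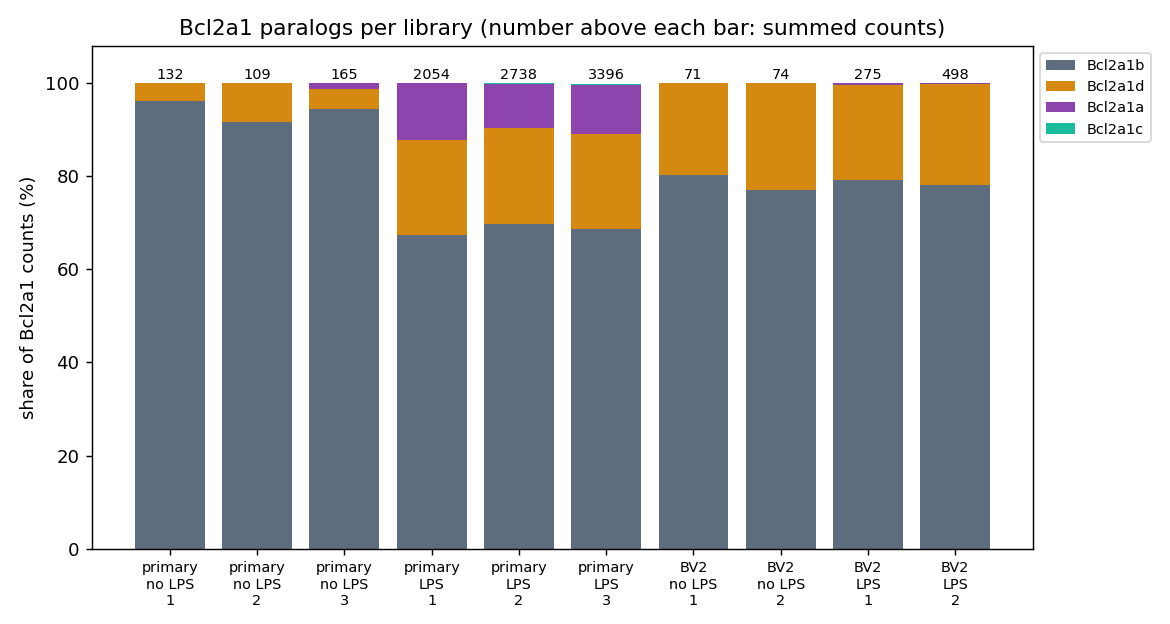
Share of A1 counts (percent, vertical axis) that fell on each of the 4 Bcl2a1 rows in each of the 10 libraries (horizontal axis), with the summed counts above each bar. Bcl2a1b held 91.7% to 96.2% in the 3 primary libraries without LPS and 67.3% to 69.8% in the 3 with it, while the 4 BV2 libraries all lay between 77.0% and 80.3%.

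Mcl1, the other inducible guardian, rose in primary microglia as well, by a far smaller factor. Its levels were 277, 270 and 259 CPM without LPS and 402, 376 and 437 CPM with it. The groups did not overlap, and the log2 fold change was 0.58 ± 0.11 (1.49-fold, adjusted p = 0.000237). The founding guardian Bcl2 was low throughout, with 5.62, 13.5 and 5.98 CPM without LPS and 4.70, 4.15 and 5.67 CPM with it. One library without LPS lay well above the rest, the groups overlapped, and the log2 difference of -0.76 ± 0.36 did not pass the test (adjusted p = 0.0992). Without that library the difference was -0.26. Bcl2l1, the gene of BCL-XL, stood at 13.1, 13.5 and 10.9 CPM without LPS and 25.1, 13.7 and 9.36 CPM with it. The high value came from the LPS library that stood apart. The log2 difference was 0.31 (95% interval -0.37 to 1.00, adjusted p = 0.471) with this library and -0.13 without it.

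The effectors did not move together. Bak1 rose from 39.0, 36.4 and 40.5 CPM to 60.7, 75.9 and 79.7 CPM, with no overlap (log2 0.89 ± 0.14, adjusted p = 4.99e-05). Bax measured 54.3, 56.0 and 67.2 CPM without LPS and 57.6, 76.5 and 69.2 CPM with it. These ranges overlapped, and the log2 difference of 0.19 (95% interval -0.11 to 0.48) did not pass the test (adjusted p = 0.322). In the annotation Bak1 lies over part of Ggnbp1 on the opposite strand and Bax over Gm45808 on its own strand, so reads shared with the latter could not be told apart.

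Of the BH3-only genes, Pmaip1 fell and Bcl2l11 gave no call. Pmaip1, whose product NOXA binds MCL1 and A1, stood at 6.74, 8.99 and 9.85 CPM without LPS and 2.74, 5.74 and 1.70 CPM with it. Every LPS library was below every library without LPS, on 6 to 28 reads a library. The log2 fold change was -1.34 ± 0.38 (2.53-fold lower, adjusted p = 0.00801), and without replicate 3 of the LPS group it was -0.96 and no longer passed (adjusted p = 0.0641). Bcl2l11, whose product BIM binds every guardian, measured 58.1, 52.3 and 48.6 CPM without LPS and 62.3, 36.7 and 55.6 CPM with it. The LPS libraries spread to both sides of the others (log2 -0.06, 95% interval -0.42 to 0.31, adjusted p = 0.823).

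In all, 5 of the 10 members rose with LPS in primary microglia (Mcl1, Bcl2a1a, Bcl2a1b, Bcl2a1d and Bak1), 1 fell (Pmaip1) and 4 did not pass the test. Among the 10664 genes tested, 21.4% were called higher and 17.8% lower. The members' median log2 fold change was 0.45, against -0.03 over all genes. As 3 of the 5 are near-identical copies, they are not independent of each other. In bulk libraries fewer cells of a type and less RNA per cell cannot be told apart, and the markers of other glia listed above were present in these samples. Their part in these changes was not tested.

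**Figure D2:**
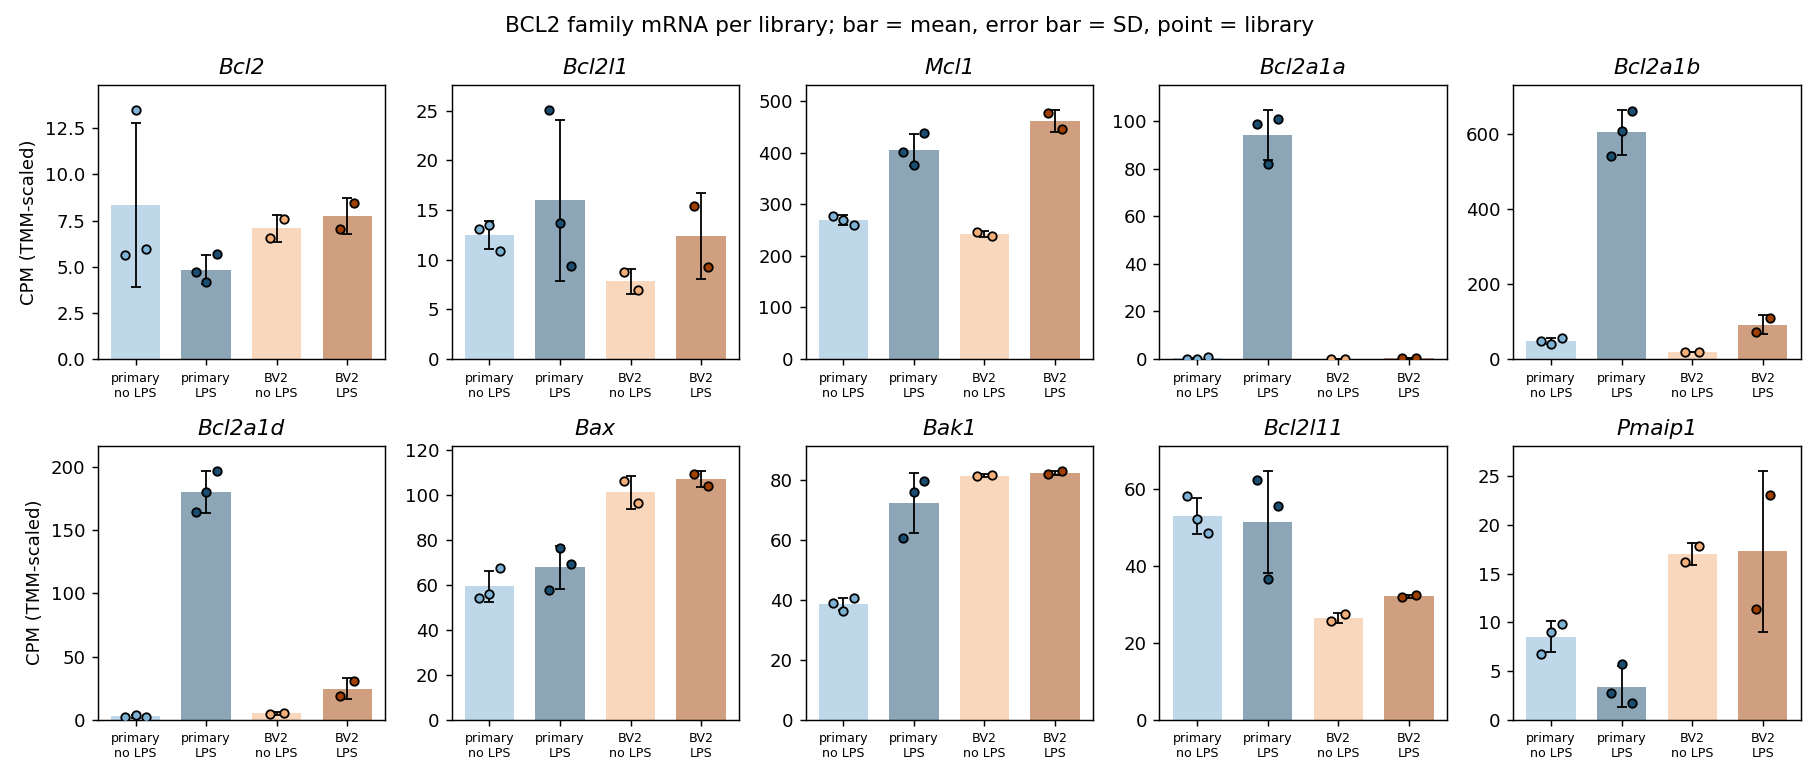
Level of each of the 10 members (CPM, linear vertical axis from 0, scaled separately for each gene) in the 4 groups, with points for libraries, bars for means and error bars for the SD (n = 3 for primary, n = 2 for BV2). Bcl2a1b, Bcl2a1d and Mcl1 were higher with LPS in both kinds of cells, and Bcl2a1a had more than 1 CPM only in primary microglia with LPS.

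In BV2 cells Bcl2a1b, Bcl2a1d and Mcl1 were the members called higher with LPS. Bcl2a1b rose from 17.8 and 18.8 CPM to 73.2 and 110 CPM, and Bcl2a1d from 4.37 and 5.62 CPM to 18.8 and 30.4 CPM. The log2 fold changes were 2.36 ± 0.22 (adjusted p = 2.27e-05) and 2.35 ± 0.33 (adjusted p = 0.000632), so the pair rose by nearly the same factor. Summed A1 rose 5.13-fold (log2 2.36 ± 0.22, adjusted p = 1.93e-05). Bcl2a1a had 0 and 0 counts without LPS and 1 and 1 with it, at or under the limit that a count of 0 allows, so it was not tested and has no fold.

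Mcl1 went from 246 and 238 CPM to 477 and 446 CPM in BV2 cells, a 1.95-fold rise (log2 0.97 ± 0.11, adjusted p = 0.00017). Bcl2l1 measured 8.73 and 6.94 CPM without LPS and 15.4 and 9.30 CPM with it, which did not pass (log2 0.67, 95% interval -0.03 to 1.36, adjusted p = 0.379). Bcl2 measured 6.55 and 7.60 CPM without LPS and 7.05 and 8.45 CPM with it, on 21 to 30 reads. Both LPS libraries lay above both others for Bcl2l1, and its difference was 1.02 without LPS replicate 2 (adjusted p = 0.0515), whereas the Bcl2 libraries overlapped.

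The effectors of the line were level across the treatment. Bak1 read 81.1 and 81.6 CPM without LPS and 81.9 and 82.8 CPM with it (log2 0.05, 95% interval -0.26 to 0.36). Bax read 106 and 96.2 CPM without LPS and 109 and 104 CPM with it (log2 0.11, 95% interval -0.19 to 0.41). Both intervals leave room for a rise of about the size of the primary Bax difference, but the Bak1 interval lies below the 0.89 measured in primary microglia.

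Among BH3-only genes in BV2 cells, Bcl2l11 measured 25.6 and 27.4 CPM without LPS and 31.9 and 32.4 CPM with it (log2 0.31, 95% interval -0.10 to 0.73, adjusted p = 0.547). Pmaip1 measured 16.2 and 17.8 CPM without LPS and 11.4 and 23.1 CPM with it. Its 2 LPS libraries fell on either side of the others (log2 0.08, 95% interval -0.58 to 0.74, adjusted p = 0.958). Of the 9 members tested, 3 rose (Mcl1, Bcl2a1b and Bcl2a1d) and 0 fell, by edgeR, by DESeq2 and at an unadjusted p under 0.05. Of all 9321 genes tested in BV2 cells, 3.69% were called higher and 1.51% lower. The members' median log2 fold change was 0.31, against -0.01 over all genes.

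**Figure D3:**
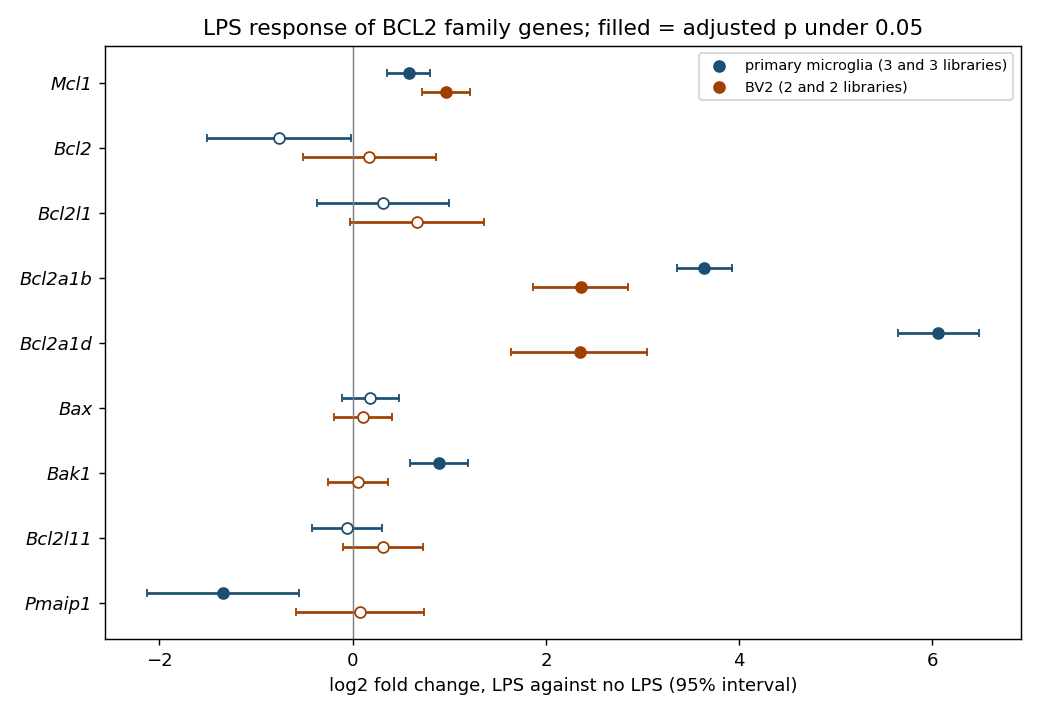
Log2 fold change with LPS (horizontal axis) of 9 members in primary microglia (blue) and BV2 cells (brown), with 95% intervals and filled points for adjusted p under 0.05. Bcl2a1a is left out because its libraries without LPS were at 0 to 2 counts. Bcl2a1d lies at 6.06 in primary and 2.35 in BV2 cells, and Bak1 at 0.89 and 0.05.

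The 2 responses were then set against each other in 1 fit of all 10 libraries. The difference of the responses passed the test for 3 of the 10 members, all with a larger log2 change in primary microglia, and 0 in the other direction by edgeR or DESeq2 (1, Pmaip1, at an unadjusted p under 0.05). DESeq2 also called Bcl2a1a. Over 11626 genes 8.65% were called in the first direction and 3.54% in the second. The difference was 3.76 ± 0.45 for Bcl2a1d (95% interval 2.85 to 4.67, adjusted p = 3.32e-07), 1.33 ± 0.26 for Bcl2a1b (0.81 to 1.86, adjusted p = 0.000446) and 0.89 ± 0.21 for Bak1 (0.46 to 1.32, adjusted p = 0.00374). For summed A1 it was 1.79 ± 0.25 (adjusted p = 5.48e-06). Mcl1 had the larger point estimate in BV2 cells, and its difference of -0.34 (95% interval -0.68 to 0.00428) did not pass (adjusted p = 0.229). The difference for Pmaip1, -1.37 (95% interval -2.43 to -0.30), did not pass either (adjusted p = 0.092). It passed without replicate 2 of the LPS-treated primary microglia (-2.01, adjusted p = 0.0105), without LPS replicate 1 of BV2 cells (-1.76, adjusted p = 0.018), with no filter on low counts (adjusted p = 0.0272) and with a replicate block (adjusted p = 0.0452), and was -0.75 without LPS replicate 2 of BV2 cells (adjusted p = 0.477). For Bcl2a1a no difference is given, since both BV2 groups lay at or under the limit of a count of 0.

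The starting levels also differed between the primary cells and the line, in the same fit. Without LPS, primary microglia had more Bcl2a1b (47.8 ± 7.01 against 18.3 ± 0.75 CPM, SD, n = 3 and 2; log2 1.39 ± 0.20, adjusted p = 8.53e-07) and more Bcl2l11 (53.0 against 26.5 CPM; log2 1.00 ± 0.20, adjusted p = 5.65e-05). They had less Bax (59.2 against 101 CPM; log2 -0.77 ± 0.15, adjusted p = 4.36e-05) and less Bak1 (38.6 ± 2.06 against 81.4 CPM; log2 -1.07 ± 0.15, adjusted p = 4.71e-07). Both effectors were thus higher in every BV2 library than in any primary library without LPS. Pmaip1 was lower in primary microglia as well (8.53 ± 1.61 against 17.0 CPM; log2 -0.99 ± 0.33, adjusted p = 0.0107). Bcl2a1d was lower on few reads (2.67 ± 0.92 against 4.99 ± 0.89 CPM; log2 -0.90 ± 0.40, adjusted p = 0.0418), a call that was lost without primary replicate 1 or 3, replicate 1 of the LPS-treated primary microglia or BV2 replicate 2 (adjusted p up to 0.202). Without either primary replicate 1 (adjusted p = 0.0543) or BV2 replicate 2 (adjusted p = 0.06), Pmaip1 lost its call. Bcl2l1 did not pass (log2 0.66 ± 0.37, adjusted p = 0.112), but was called higher in primary microglia without replicate 1 of their LPS group (log2 0.72, adjusted p = 0.0228) and in a fit of the 5 LPS-free libraries alone (log2 0.67, adjusted p = 0.0217).

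So 2 of the 10 members were called higher and 4 lower in primary microglia without LPS, where 41.5% of all genes were called higher and 32.5% lower. Of 10 members, counts of this size are close to those shares. The primary libraries held the astrocyte, fibroblast and neuronal markers that were at 0 in BV2 libraries, and the cells differ in origin and culture. The part of either in these levels was not tested.

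With LPS, 4 members were called higher in primary microglia (Bcl2a1a, Bcl2a1b, Bcl2a1d and Bcl2l11) and 2 lower (Bax and Pmaip1), beside 43.1% and 30.7% of all genes. Bcl2a1b was 6.59-fold higher (604 ± 60.3 against 91.4 ± 25.7 CPM; log2 2.72 ± 0.17, adjusted p = 7.39e-14). Bcl2a1d was 7.25-fold higher (180 ± 16.5 against 24.6 ± 8.22 CPM; log2 2.86 ± 0.19, adjusted p = 1.4e-13). Bcl2a1a had 867 counts over the primary LPS libraries and 2 over the BV2 LPS libraries, a scaled ratio of 307 with a 95% counting interval of 84.8 to 2540. Pmaip1 was 5.13-fold lower (3.39 ± 2.10 against 17.3 ± 8.27 CPM; log2 -2.36 ± 0.37, adjusted p = 5.9e-06). Bak1 no longer passed the test (72.1 ± 10.0 against 82.4 CPM; log2 -0.19, 95% interval -0.48 to 0.11, adjusted p = 0.242).

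Divided by the length of each gene's merged exons, levels can be ordered among members within a group, with a limit for A1. Reads that fit several A1 copies are missing from the counts, while the full length was used. Of windows of 101 bases, only 56.9% in Bcl2a1a, 69.5% in Bcl2a1b and 46% in Bcl2a1d occurred in no other copy. The A1 values may therefore be too low, and unequally so. Near-ties of A1 with other members settle no order. In primary microglia without LPS, Mcl1 led with 78.7 ± 2.69 CPM per kilobase, followed by Bax (68.3 ± 8.09) and Bcl2a1b (58.5 ± 8.58). Bax and Bcl2a1b differed by less than the sum of their SDs. With LPS, Bcl2a1b led with 739 ± 73.8 CPM per kilobase and Bcl2a1d came next with 209 ± 19.1. Mcl1 (118 ± 9.01) and Bcl2a1a (115 ± 12.9) followed within their spread, and Bax came after them with 78.2 ± 11.0. A1 copies thus took 3 of the 4 top places, where without LPS they had held the third, the eighth and the lowest.

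In BV2 cells Bax led without LPS, at 116 ± 8.30 CPM per kilobase, with Mcl1 at 70.8 ± 1.75 and Bak1 at 34.1 ± 0.16. With LPS, Mcl1 (135 ± 6.35), Bax (123 ± 4.23) and Bcl2a1b (112 ± 31.5) were the top members and lay within the spread of Bcl2a1b. Bcl2, whose merged exons are the longest of the members, stayed at 0.53 to 0.91 CPM per kilobase across the 4 groups, and Bcl2l1 at 2.02 to 4.12. The per-length order depends on the transcript forms used, which these counts do not show. The limit given above for A1 holds in BV2 cells too.

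The ratio of Bax to Bcl2 counts within a library, a common index of death to survival transcripts, was 9.67, 4.15 and 11.2 in primary microglia without LPS and 12.2, 18.5 and 12.2 with it. All 3 LPS libraries were above all 3 without LPS, and the mean log2 difference was 0.87. The two-sided exact permutation p was 0.1, the smallest this design allows. In BV2 cells the ratio was 16.2 and 12.7 without LPS and 15.5 and 12.3 with it. The index rests on 12 to 33 Bcl2 reads a library and leaves out A1 and Mcl1, the guardians with most transcript here.

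More of the other BH3-only and BNIP genes fell than rose. In primary microglia 1 of the 6 tested rose and 3 fell with LPS. Bid, which links death receptors to the mitochondrion, rose from 7.20 ± 1.99 to 33.1 ± 8.67 CPM (log2 2.18, adjusted p = 1.16e-06). Bmf fell from 33.9 ± 5.66 to 3.51 ± 0.40 CPM (log2 -3.28, adjusted p = 1.9e-09), Bbc3 (PUMA) from 7.73 ± 1.46 to 2.24 ± 0.65 CPM (log2 -1.75, adjusted p = 0.000599) and the mitophagy receptor gene Bnip3l from 112 ± 6.75 to 63.5 ± 6.95 CPM (log2 -0.82, adjusted p = 3.01e-05). Of the BH3-only members, Pmaip1 was lower as well and Bcl2l11 was not called (log2 -0.06, adjusted p = 0.823). Among all genes tested, 21.4% were called higher and 17.8% lower. The median log2 fold change of the 6 listed genes was -0.51, against -0.03 over all genes. Of the 4 other multidomain genes tested, 1 rose (Bcl2l13, log2 0.49, adjusted p = 0.0119) and 0 fell by edgeR, DESeq2 or unadjusted p under 0.05. In BV2 cells 0 of the 5 BH3-only and BNIP genes and 0 of the 3 multidomain genes tested were called by edgeR or DESeq2 (1, Bmf, was lower at an unadjusted p under 0.05).

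Downstream of the mitochondrial membrane, 3 of 11 genes rose and 1 fell in primary microglia (median log2 0.10), beside the 21.4% higher and 17.8% lower of all genes. Cycs, the cytochrome c gene, rose from 23.5 ± 2.36 to 53.7 ± 2.40 CPM (log2 1.18, adjusted p = 3.04e-06), and Vdac3, which encodes a channel of the outer membrane, rose by log2 0.61 (adjusted p = 0.00104). Casp9, the caspase of the apoptosome, fell from 37.7 ± 3.67 to 15.9 ± 1.39 CPM (log2 -1.27, adjusted p = 8.9e-06). In BV2 cells 0 of the 11 were called by edgeR or DESeq2, and 0 at an unadjusted p under 0.05. Without LPS, 6 of the 11 were lower and 2 higher in primary microglia than in BV2 cells, beside 32.5% and 41.5% of all genes, the lower ones led by Cycs (log2 -2.52, adjusted p = 1.23e-13), Htra2 (log2 -2.13, adjusted p = 1.68e-11) and Vdac2 (log2 -1.35, adjusted p = 1.41e-09).

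Genes outside the BCL2 family were read next, first those listed by family name as inhibitor of apoptosis proteins, whatever their function. Of 6 inhibitor of apoptosis genes tested in primary microglia, 3 rose and 0 fell by edgeR, DESeq2 or unadjusted p under 0.05 (median log2 0.53). Among all genes tested, edgeR called 21.4% higher and 17.8% lower (median log2 -0.03). Birc3 (cIAP2) went from 10.7 ± 2.62 to 79.4 ± 7.91 CPM (log2 2.86, adjusted p = 1.28e-10) and Birc2 (cIAP1) from 16.2 ± 2.10 to 37.8 ± 5.63 CPM (log2 1.21, adjusted p = 2.87e-05). The other gene that rose was Naip2 (log2 0.545, adjusted p = 0.00174). Of 9 death receptor and necroptosis genes, 5 rose and 0 fell by edgeR, DESeq2 or unadjusted p under 0.05 (median log2 1.54), beside the same shares. The largest level among them was that of Cflar, which encodes the caspase-8 inhibitor cFLIP and rose from 49.5 ± 0.41 to 616 ± 59.0 CPM (log2 3.62, adjusted p = 1.41e-14). Genes that favour death rose too, among them Casp8 (log2 1.54, adjusted p = 2.13e-07) and Zbp1, a nucleic acid sensor of necroptosis (2.45 ± 1.51 to 166 ± 17.8 CPM, log2 6.08, adjusted p = 3.02e-12). In BV2 cells Birc3 (log2 1.74, adjusted p = 0.00872) and Cflar (log2 2.12, adjusted p = 1.44e-05) were the 2 genes called from these lists. Of all genes tested in BV2 cells, 3.69% were called higher and 1.51% lower.

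Factors that act on BCL2 genes or proteins were split. In primary microglia 6 of 14 rose and 4 fell (median log2 0.08), and with DESeq2 6 rose and 1 fell. Among all genes tested there, edgeR called 21.4% higher and 17.8% lower (median log2 -0.03). Rela, an NF-kB subunit gene, rose by log2 1.09 (adjusted p = 1.27e-05), Tmbim6 (BAX inhibitor 1) by 0.73 (adjusted p = 1.69e-05) and Trp53 by 0.81 (adjusted p = 5.64e-05). The NF-kB subunit genes Nfkb1 (log2 3.23, adjusted p = 0.000178) and Rel (log2 2.06, adjusted p = 0.000832) were called higher there too. Foxo3, whose product is known to drive Bcl2l11 and Bbc3, fell from 25.5 ± 3.05 to 6.93 ± 0.51 CPM (log2 -1.89, adjusted p = 1e-06). In BV2 cells Nfkb1 (log2 1.31, adjusted p = 0.000194) and Rel (log2 1.15, adjusted p = 0.0444) rose and 0 of the 14 fell by edgeR or DESeq2 (1, Foxo1, was lower at an unadjusted p under 0.05). DESeq2 called 1 of the 2 rises, without Rel. The plot of the 6 lists shows which of their genes were called in the line, where 3.69% of all genes tested were called higher and 1.51% lower.

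**Figure D4:**
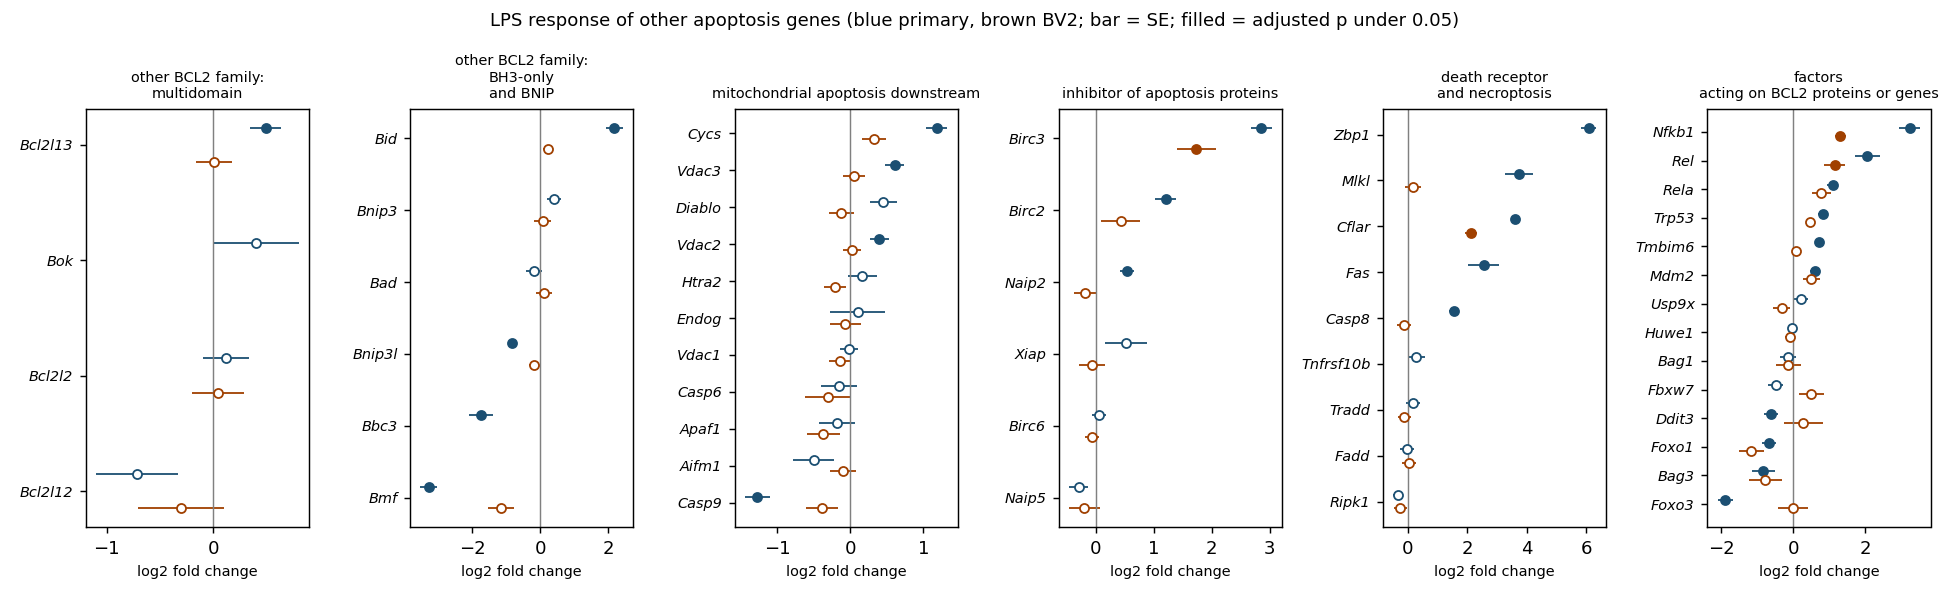
Log2 fold change with LPS (horizontal axes, scaled separately) of the tested genes of 6 apoptosis lists in primary microglia (blue) and BV2 cells (brown), with SE bars and filled points for adjusted p under 0.05. Birc3, Cflar, Nfkb1 and Rel are the 4 genes filled in brown, and Bmf at -3.28 and Zbp1 at 6.08 are the extremes in primary microglia.

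The genes whose log2 levels followed Bcl2a1d most closely over the 10 libraries, out of 11626, were Cd83 (Pearson r = 0.9928), Filip1l (0.9921), Aoah (0.9917), Gch1 (0.9913) and Dram1 (0.9913). Each was highest in primary microglia with LPS and next highest in BV2 cells with LPS. Cd83 had 40.7, 276, 56.2 and 111 CPM, and Gch1 4.87, 115, 9.14 and 28.2 CPM, in primary microglia without and with LPS and BV2 cells without and with LPS. The 10 libraries fall into 4 groups, so these values describe a shared pattern of group means.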

How the data were processed

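Per the labels' protocols, ribosomal RNA was removed and libraries were made with a directional kit and sequenced in pairs of 101 cycles. Per the submitters' processing notes, the authors used CASAVA 1.8.2, Trimmomatic 0.33, STAR 2.5.1 and DESeq2 (no version) with mm10. Their annotation was not given in the sources used here. Deposited files hold raw counts per gene, unstranded and for each strand, and the reverse-strand column was used (0.682% to 2.21% of stranded gene counts lay on the other strand). Reads that named no gene, 70.4% to 79.5% of the total, stayed out of all sizes and tests. They include 7.64% to 11.8% that mapped to several places.

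Tests were run on these counts in edgeR 4.0.16 under R 4.3.3 (TMM, filterByExpr with a minimum of 10 counts and a total of 15, robust quasi-likelihood F test, Benjamini-Hochberg, called at adjusted p under 0.05). The LPS comparisons used each cell type's own libraries, and the others used 1 fit of all 10 libraries. The steps were tested on simulated data. Alternatives were other normalizations, DESeq2 1.42.0, no filter, no Rn45s, the unstranded column, other fits, a replicate block and leaving out each library. Count intervals cover counting error only. Replicates of a group differed by more than sampling noise (lowest chi-square over degrees of freedom 1.52), so each counted once. Members and gene lists were chosen with earlier results of these data known. Levels or counts of all 10 members are given for every library, but fold changes are not given for every member in every comparison. Of each list at most 3 called genes in each direction are given, besides Nfkb1 and Rel for LPS in primary microglia. Some genes of the downstream list were left out of its counts and are not reported here. Exon lengths, positions and transcripts came from GENCODE M21, and promoters from RefSeq, which held all members except Pmaip1.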

Additional observations from a re-analysis of the deposited data

Results flagged for a closer look

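The LPS responses of primary microglia and BV2 cells differed by the interaction test of edgeR for the following genes, given as log2 response in primary microglia minus that in BV2 cells. Among the members these were Bcl2a1b (1.33), Bcl2a1d (3.76) and Bak1 (0.89), and the summed A1 rows gave 1.79 (adjusted p from 3.32e-07 to 0.00374). Among other apoptosis genes the difference was positive for Bid (2.00), Cycs (0.91), Naip2 (0.77), Cflar (1.55), Mlkl (3.62), Casp8 (1.72), Tmbim6 (0.69) and Nfkb1 (1.96), and negative for Bmf (-2.09), Bbc3 (-2.20) and Foxo3 (-1.82). The adjusted p of these ran from 7.44e-06 for Cflar to 0.0364 for Bbc3. Tested were 4 multidomain, 6 BH3-only and BNIP, 11 downstream, 7 inhibitor of apoptosis, 9 death receptor and necroptosis, and 14 factor genes. Over all 11626 genes tested, 8.65% were called with a positive difference and 3.54% with a negative one. Bbc3 stood at 1.79 CPM in BV2 cells without LPS and Mlkl at 0.84 CPM in primary microglia without LPS, close to the limit of a count of 0. With DESeq2 the differences of Naip2 and Bbc3 were not called, and that of Zbp1 was, which edgeR did not call (4.13, adjusted p = 0.106). Fibroblast markers and 7 of 8 astrocyte markers were at 0 in the BV2 libraries and present in the primary ones (the other astrocyte marker, Aldoc, had 42.2 and 39.8 CPM in BV2 cells and 25.2 and 23.2 CPM in primary microglia, without and with LPS), and their part in these differences was not tested. No group had the 4 libraries needed for a test of single outlying samples.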

How the results depend on the processing

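The number of members called stayed within 1.5 times the main count under every alternative run, and summed A1 kept its direction and its call in all 5 comparisons. Leaving out 1 library gave 5 to 6 called members for LPS in primary microglia, 3 to 3 in BV2 cells, 3 to 4 for the difference, 4 to 6 without LPS and 6 to 6 with LPS between the cells. The log2 ratio of Bax to Bcl2 ran from 0.43 to 1.15 in primary microglia and from -0.23 to 0.13 in BV2 cells, where it changed sign. Uncalled members whose sign changed without a library ran, for LPS in primary microglia, from -0.20 to 0.15 (Bcl2l11, above 0 at 0.02 and 0.15) and from -0.13 to 0.61 (Bcl2l1), for LPS in BV2 cells from -0.53 to 0.49 (Pmaip1), for the difference from -0.85 to 0.087 (Bcl2l1), and between the cells from -0.26 to 0.47 without LPS (Bcl2) and from -0.13 to 0.74 with LPS (Bcl2l1). The cause was not tested. The lower Bcl2a1d in primary microglia without LPS also lost its call with RLE normalization (adjusted p = 0.0539), DESeq2 (0.0768) and a fit of the 5 libraries alone (0.0594). The Pmaip1 difference passed without the filter (adjusted p = 0.0272) and ran from -2.01 to -0.75 when 1 library was left out, passing in 2 of the 10 cases. Over all genes, LPS in BV2 cells called 485, against 311 with DESeq2 (83.0% higher, against 70.9%) and 800 without LPS replicate 1. Deviations from the group mean in primary microglia correlated at -0.09 to 0.21 between samples sharing a replicate number and at -0.32 to 0.21 between the others. In BV2 cells, with 2 libraries a group, such values must mirror each other (0.18 for shared numbers, -0.18 for the others). These correlations cannot decide on pairing, and the samples were not taken as pairs. With the replicate number as a block 6, 3 and 4 members were called for LPS in primary microglia, LPS in BV2 cells and the difference, the added one being Pmaip1 (log2 -1.36, adjusted p = 0.0452). Depth limits Bcl2 and Pmaip1, Bcl2a1d without LPS, and Bcl2a1a in every group other than primary microglia with LPS.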
